A study of Rattus norvegicus with 69 samples.

Results

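The vomeronasal receptor genes Vom1r and Vom2r were followed in rat whole blood on all 69 arrays of the series. Members were the genes whose probe set carried exactly 1 symbol beginning with Vom1r or Vom2r, and Vom2r56, which had several such probe sets, entered by the one with the highest mean level. This gave 141 genes, 82 Vom1r and 59 Vom2r, of 14557 genes with a probe set of their own. The rule itself used no measured difference, though it was set with earlier results of these data known. Another 17 probe sets that listed a vomeronasal symbol together with other symbols were left out. Of the 141 genes, 138 matched a RefSeq gene by identifier, and 1 of these, Vom2r-ps45, was annotated as a pseudogene.

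The blood came from Sprague-Dawley rats, all male and bought at 9 weeks of age, that breathed air passed through a high efficiency particulate air (HEPA) filter or, in whole-body chambers, the printer-emitted particles (PEPs) and gases of a laser printer called B1. Exposure took 5 hours on each day, and blood was taken on day 1, 5, 9, 13, 17 or 21. Each arm held 5 arrays on days 1, 5, 9 and 13 and 6 on day 21, while day 17 held 4 air and 5 exposed arrays. A further 4 air and 4 exposed arrays came from rats that carried a telemetry implant and were sampled on day 21. Per the labels the whole exposure experiment was run in 2 rounds without saying which array belonged to which, so a round could not be entered in any fit.

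Vomeronasal receptors are the pheromone receptors of the sensory neurons of the vomeronasal organ, a blind-ended tube in the nasal septum of rodents. Vom1r receptors are short receptors with their coding sequence in a single exon, made by apical neurons that signal through the G protein subunit Gnai2, whereas Vom2r receptors carry a long extracellular domain that binds peptides and proteins and are made by basal neurons that signal through Gnao1. Both types of neuron depend on the channel Trpc2, and a mature neuron makes few of the many receptors. In blood their probe sets were read here against the low end of each array, taken as its lower quartile over 36685 probe sets.

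The sequences upstream of the genes are shown for the members with the highest Vom2r mean, the highest Vom1r mean and the smallest p for a trend over days, because these carry the level and day results below. Each window runs from 250 bases before to 50 bases after the RefSeq start in build GRCr8, and capitals mark a TATAAA match, which the window of Vom1r70 lacks, and the ATG at that start.
Vom2r62 (chr12:22655814-22656113, minus strand): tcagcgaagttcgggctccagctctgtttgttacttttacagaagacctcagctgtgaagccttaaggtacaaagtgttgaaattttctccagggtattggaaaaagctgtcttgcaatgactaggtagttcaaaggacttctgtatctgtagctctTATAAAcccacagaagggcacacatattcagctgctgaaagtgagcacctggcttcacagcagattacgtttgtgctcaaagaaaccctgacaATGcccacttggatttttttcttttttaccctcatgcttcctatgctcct
Vom1r74 (chr4:88073702-88074001, plus strand): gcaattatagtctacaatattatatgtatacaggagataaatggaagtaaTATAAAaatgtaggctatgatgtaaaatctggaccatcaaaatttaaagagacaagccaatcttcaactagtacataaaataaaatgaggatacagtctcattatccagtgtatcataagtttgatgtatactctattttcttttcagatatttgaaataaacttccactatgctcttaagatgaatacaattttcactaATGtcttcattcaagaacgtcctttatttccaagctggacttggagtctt
Vom1r70 (chr4:87777745-87778044, plus strand): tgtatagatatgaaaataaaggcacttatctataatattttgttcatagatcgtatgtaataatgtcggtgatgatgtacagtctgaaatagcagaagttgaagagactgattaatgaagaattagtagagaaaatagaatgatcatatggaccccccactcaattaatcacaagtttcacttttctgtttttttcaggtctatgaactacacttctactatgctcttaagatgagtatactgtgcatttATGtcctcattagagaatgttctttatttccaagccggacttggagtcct
RefSeq windows of this kind were found for 126 of the 141 members, 129 windows in all. In 84 of them (65.12%, against 9.0% of all 33469 windows) the bases at the annotated start were ATG, so that these windows lie upstream of the coding sequence rather than of a mapped transcription start. The median GC content of the members' windows was 37.0%, against 51.67% over all windows. A TATAAA match on either strand was present in 52 of the 129 windows (40.31%, against 14.22% of all), and the GC box letters GGGCGG were present on either strand in 2 (1.55%, against 33.06%). The windows of olfactory receptor genes were alike in these respects, with a median GC content of 35.33%, a TATAAA match in 37.75% and a GC box in 1.2%. A match is a description of these letters only.

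The vomeronasal receptor genes lay at the low end of the blood arrays. The median of their means over 69 arrays was 1.21 on the log2 intensity scale, while the lower quartile of an array averaged 1.51 (lowest 1.40, median 1.48, highest 1.80) and its median averaged 2.53. On average over arrays a member lay below the lower quartile of its own array, with a median distance of -0.29 log2 units. The means of 118 members (83.69%) were under the mean lower quartile, against 22.99% of all probe sets. The median of the means was 1.20 for Vom1r and 1.24 for Vom2r. On a single array between 23 and 54 of the 141 members (median 31.0) exceeded the lower quartile and between 1 and 12 (median 4.0) exceeded the array median. The 23 members with a mean above the lower quartile were 13 Vom1r and 10 Vom2r genes. Since probe affinity differs between probe sets, the order of the levels below is an order of probe set signals and not of RNA amounts.

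**Figure D1:**
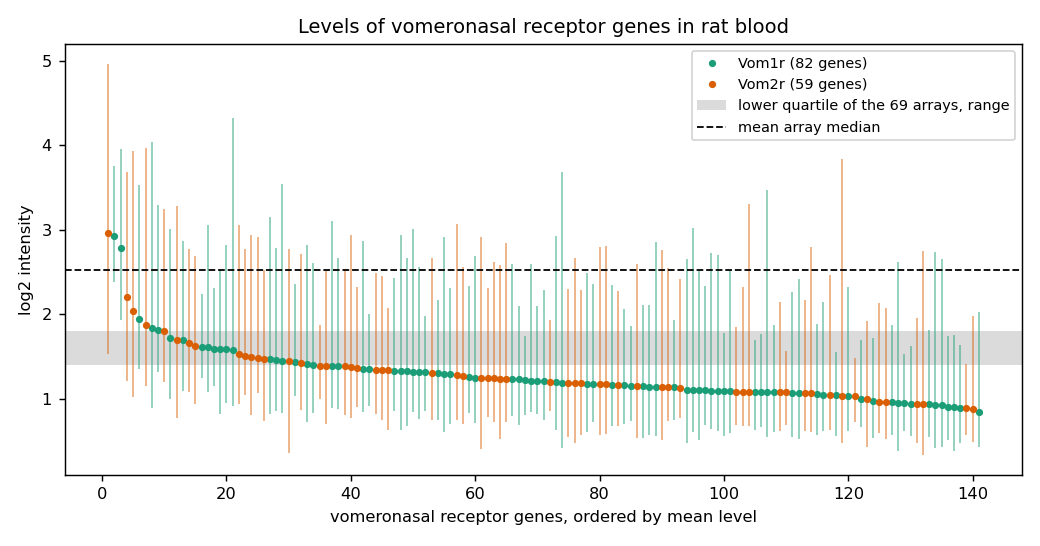
Mean log2 intensity over 69 arrays (points) and the lowest and highest array (vertical lines) of the 141 receptor genes, ordered by mean, with the range of the arrays' lower quartiles as a grey band and the mean array median as a dashed line. The mean of 3 genes lies above the dashed line, and 118 means lie under the mean lower quartile of 1.51.

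Only Vom2r62, Vom1r74 and Vom1r56 had means above the mean array median, and these genes exceeded the lower quartile on all 69 arrays. Vom2r62 had a lowest value of 1.53, a median of 2.93 and a highest value of 4.96, and it was above the array median on 50 arrays. Its values overlapped between every pair of days: on day 1 they ran from 2.47 to 4.96 with a median of 3.18 (n = 10), and on day 21 from 1.53 to 3.75 with a median of 2.83 (n = 12). Vom1r74 was the steadier of the pair at the top, with a lowest value of 2.38, a median of 2.90 and a highest value of 3.75, above the array median on 61 arrays. Vom1r56 ran from 1.93 to 3.96 with a median of 2.73 and was above the array median on 49 arrays. No other member was above the array median on more than 18 arrays, the count for Vom2r66, whose mean was 2.20. The next means were those of Vom2r58 at 2.05, Vom1r67 at 1.94, Vom2r13 at 1.88 and Vom1r92 at 1.83. Over all members, 75 were at or below the array median on every array.

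At the lower end, the mean was 0.84 for Vom1r41, 0.88 for Vom2r78, 0.89 for Vom2r65 and 0.90 for Vom1r76. Vom2r65, Vom2r52, Vom2r72 and Vom1r102 did not exceed the lower quartile on any of the 69 arrays. The widest spans between arrays were those of Vom2r62 at 3.43 log2 units, Vom1r32 at 3.41, Vom2r30 at 3.36 and Vom1r4 at 3.25. Vom1r32 had a median of 1.39 and was above the array median on 4 arrays, with its highest value of 4.33 on exposed day 5 replicate 1. Vom2r30 had a median of 0.96 and was above the array median on 1 array, air day 1 replicate 2, with 3.84. Both arrays belong to the 4 with a lower quartile above 1.7 that are described below. Over members the median SD within groups was 0.32 log2 units.

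Some members are nearly identical in sequence at the start. Over the first 50 bases from the start, compared within each class for the 42 Vom1r and 42 Vom2r members whose window had ATG there, a pair of Vom1r genes had a median of 17.0 identical bases and 27 of 861 pairs had 45 or more. Vom1r67 and Vom1r66, neighbours on chromosome 4, are printed as an example of such a pair, with the base that differs in capitals (A39G, counted from the A of the ATG in Vom1r67).
Vom1r67 (chr4:87597899-87597948, plus strand): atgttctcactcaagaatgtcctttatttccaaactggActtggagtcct
Vom1r66 (chr4:87618593-87618642, plus strand): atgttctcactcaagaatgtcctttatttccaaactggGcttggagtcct
Vom1r67, with a mean of 1.94, was above the lower quartile on 67 of the 69 arrays, and Vom1r66, with a mean of 0.96, on 2. Vom1r3 and Vom1r4, identical over these 50 bases, were above it on 2 and 9 arrays. Vom1r70 and Vom1r74, printed above, shared 43 of the 50 bases and were above it on 15 and 69 arrays. Over the 27 Vom1r pairs, values were correlated after the group means and the array's member mean were removed. The median r was -0.03 (-0.27 to 0.33), against -0.01 over all 861 Vom1r pairs. Among Vom2r genes, 38 of 861 pairs had 45 or more identical bases. Their median r was -0.04 (-0.27 to 0.34), against -0.01 over all Vom2r pairs. These are descriptions and were not tested. The sequences of the array's probes were not used here, so how far a probe set reads such neighbours together is not known.

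Other genes of the vomeronasal neuron gave no uniform picture. Of 15 such genes on the list, 7 had a single-symbol probe set, and Trpc2 and Gnao1 were not among those named in the symbol table used here. Gnai2, which blood cells also make, had a mean of 10.1 and was above the array median on all 69 arrays. Omp, the olfactory marker protein of mature sensory neurons, had a mean of 3.73 and was above the median on 69 arrays, and Gap43, a growth cone protein, had a mean of 3.02. Gng8 and Gng13, G protein gamma subunits, had means of 2.56 and 1.56, and the chloride channel Ano1 had a mean of 1.80. Tfap2e, a transcription factor of basal vomeronasal neurons, had a mean of 3.31 and was above the median on 68 arrays. Over the 7 genes, 5 means lay above the mean array median and 0 under the mean lower quartile. Among the marker genes of blood cells the lowest mean was 3.5, for the natural killer (NK) cell protease Gzmb, and the highest was 12.3, for the haemoglobin gene Hba-a1, so that all of them lay above the highest receptor mean of 2.96. All blood markers measured except Gzmb were above the array median on every array, and Gzmb was above it on 61.

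**Figure D2:**
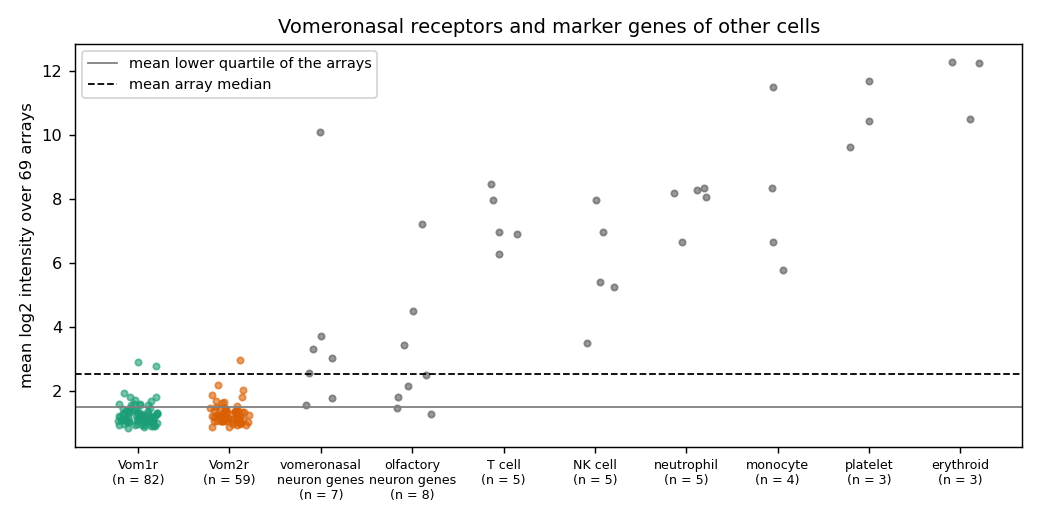
Mean log2 intensity over 69 arrays of each receptor gene and of the marker genes of other cells (points, spread sideways for legibility), with the mean lower quartile (solid) and the mean array median (dashed). The receptor means crowd around and under the lower quartile, and the markers of blood cells lie between 3.5 and 12.3.

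Olfactory and bitter taste receptors were also low, and 2 smaller chemosensory families less so. The median mean level was 1.34 over 1104 olfactory receptor genes, of which 736 (66.67%) were under the mean lower quartile, and 1.18 over 35 bitter taste receptors (Tas2r), of which 26 (74.29%) were under it. Trace amine-associated receptors (16 genes) and Mas-related receptors (12 genes) had medians of 1.65 and 1.78, above the mean lower quartile, with 5 (31.25%) and 5 (41.67%) of their genes under it. The share of members under the lower quartile was not tested against these families, because genes are not replicates.

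The receptors rose and fell together with the low end of the array. The mean over the 141 members ran from 1.11 to 1.67 between arrays (median 1.28), and its Pearson correlation with the lower quartile was 0.95 (Spearman 0.91, n = 69 arrays). It is given with no test, since the points share the intensities and the normalization from which both measures were made. Without the 2 arrays farthest from the median quartile r was 0.93, and with the quartile taken without vomeronasal and olfactory probe sets it was 0.94. It was 0.95 over the 34 air arrays and 0.94 over the 35 exposed arrays. Within single days it was 0.98 (n = 10), 0.96 (n = 10), 0.88 (n = 10), 0.96 (n = 10), 0.82 (n = 9) and 0.62 (n = 12) in the order of sampling and 0.69 among telemetry arrays (n = 8). The Vom1r mean and the Vom2r mean, which share no probe set, had r of 0.89 with each other. The mean of the olfactory receptors followed the member mean with r of 0.96 and the lower quartile with r of 0.98. The upper quartile of the array ran the other way, with r of -0.92 to the member mean.

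**Figure D3:**
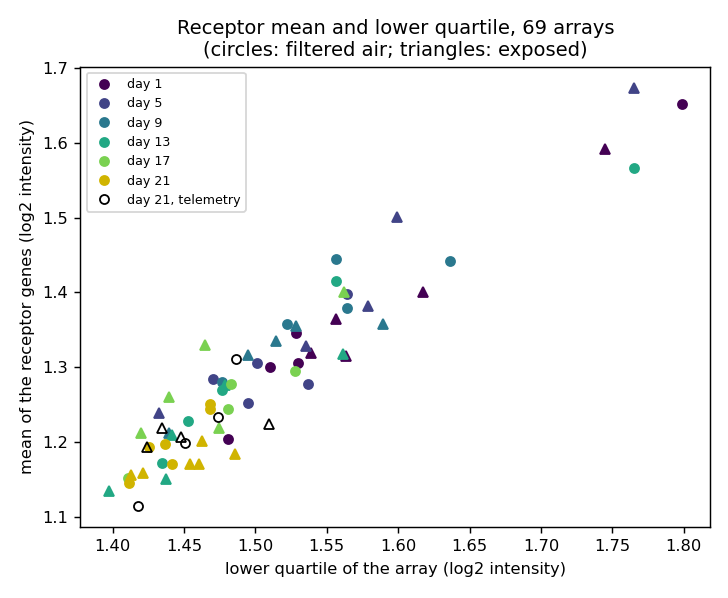
Mean of the 141 receptor genes against the lower quartile of the same array, both in log2 intensity, for 69 arrays coloured by day, with circles for filtered air, triangles for exposed arrays and open symbols for telemetry. The points form 1 band (r = 0.95), the 4 arrays beyond 1.7 lie at its upper end, and the day 21 arrays lie at its lower end.

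At the upper end of that band, 4 arrays stood apart: air day 1 replicate 2, air day 13 replicate 1, exposed day 1 replicate 5 and exposed day 5 replicate 1, each with a lower quartile above 1.7. The fits weigh less reproducible arrays down, and these had the lowest weights of all 69 arrays. The weights were 0.23, 0.25, 0.45 and 0.29 in that order, and the next lowest was 0.52, for exposed day 17 replicate 3. On these 4 arrays the member mean was 1.57 to 1.67, and on the other 65 it was 1.11 to 1.5, with no overlap. They held the highest value of 49 of the 141 members (34.75%), while 24.16% of all probe sets had their highest value there. Their upper quartiles were 4.48 to 4.63, where the highest upper quartile of any array was 5.08. Ptprc, the leukocyte common antigen CD45, read 9.41 to 9.83 on them and 9.79 to 10.97 on the others. Without these 4 arrays the correlation of the member mean with the quartile was 0.90 (Spearman 0.89, n = 65), and the days that hold them, days 1, 5 and 13, had the 3 highest values within days.

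Single receptors followed the quartile loosely. The correlation was positive for 139 of 141 members, with a median of 0.34, against 59.33% positive and a median of 0.12 over all probe sets, and it exceeded 0.5 for 18 members. It was highest for Vom2r76, Vom1r86 and Vom2r30 and lowest for Vom1r58, Vom2r12 and Vom2r60. When the quartile was entered beside the 14 group means in limma's weighted linear model, 39 of the 129 members that had a variance of at least 0.05 passed at an adjusted p under 0.05, all with a positive coefficient (30.2%, against a background of 18.7% of all 34176 probe sets tested in that direction and 35.9% in either direction). The quartile is made from the same intensities and normalization as the members, most of which lie under it. The p-values of this fit are therefore no independent test of the members. The coefficient was positive for 124 of the 129, with a median of 1.21 log2 units per log2 unit of quartile, against 0.48 over all probe sets. For Vom2r58, whose values ran from 1.02 to 3.93, it was 4.28 (SE 0.89, adjusted p = 0.000195). Without the 4 arrays above 1.7 it was 3.29 (SE 1.19, adjusted p = 0.0485). The next by p were Vom1r81 at 2.95 (SE 0.63), Vom2r76 at 2.54 (SE 0.56), Vom1r5 at 3.66 (SE 0.84) and Vom1r86 at 2.94 (SE 0.69). Without those arrays Vom1r86 passed (4.003, SE 0.95, adjusted p = 0.00392), while Vom1r81 (2.16, SE 0.87), Vom2r76 (2.13, SE 0.79) and Vom1r5 (2.80, SE 1.14) did not. The count of members passing fell to 15, against a background of 16.2% in either direction. After cyclic loess, which removes differences between arrays that depend on intensity, the count was 0, against 0.0093%. Among the 3 genes at the top of the level order, the coefficient of Vom1r56 passed (2.54, SE 0.95, adjusted p = 0.0315, and 2.81, SE 1.37, adjusted p = 0.146 without those arrays), and those of Vom1r74 (0.95, SE 0.65) and Vom2r62 (1.49, SE 1.28) did not.

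Many markers of blood cells ran against the quartile in the same fit. The coefficient was negative and passed for 5 of 5 T cell, 5 of 5 neutrophil, 4 of 4 monocyte and 4 of 5 NK cell markers, for 1 of 3 platelet markers (Pf4) and for the B cell marker Ms4a1, where 17.2% of all probe sets were lower, while it was positive for Epb42, an erythrocyte membrane protein. Here fewer cells of a type, less RNA per cell and a shift of intensities over the whole array cannot be told apart. The upper quartile of the array also ran against the member mean (r = -0.92). Outside the families, the genes most like the member mean over 69 arrays were Adgrf5 (r = 0.81), Mrpl37 (r = 0.76), Agbl1 (r = 0.76) and Mcpt1l4 (r = 0.75). Fam20c (r = 0.75), Lrrn2 (r = 0.75), Adamts19 (r = 0.74) and Pip5k1b (r = 0.74) came next. These genes were not all low. Mean levels of Adgrf5 (1.46), Mcpt1l4 and Adamts19 (1.35) lay under the mean lower quartile, and Agbl1 had 2.24 and Lrrn2 2.73. Those of Mrpl37 (7.997), Fam20c (7.12) and Pip5k1b (9.41) lay far above the mean array median. The genes most opposed to the member mean were the leukocyte genes Cd53 (r = -0.86) and Ptprc (r = -0.86). The part of these in the receptor values was not tested.

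Over the 9870 pairs of members the correlation across 69 arrays had a median of 0.11 and was positive for 80.47%. It had a median of 0.12 for the 197 pairs whose genes start within 200000 bases of each other, 0.11 for pairs within Vom1r and 0.11 for pairs within Vom2r. These are descriptions, and the pairs share the arrays and their lower quartile.

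Over the days of sampling 22 of 129 members fell, and the level of the others did not pass for a trend. The member mean had medians of 1.33, 1.32, 1.36, 1.25, 1.26 and 1.18 from the first to the last of the 6 days. On day 21 all 12 arrays lay between 1.15 and 1.25, and on day 1 the 10 arrays lay between 1.20 and 1.65. The lower quartile moved alongside, with a median of 1.55 on day 1 and 1.45 on day 21. A linear slope over the 6 days, averaged over both arms, passed for 22 of 129 members, and in each the level fell (17.1%, against a background of 11.3% of all probe sets falling and 26.1% changing in either direction). The slope was negative for 115 of the 129, with a median of -0.0084 log2 units per day against -0.0015 over all probe sets. Of the 22, 15 were among the 75 Vom1r genes tested and 7 among the 54 Vom2r genes, and this difference was not tested. They lay on chromosome 1 (12 genes), chromosome 4 (9) and chromosome 7 (1), where 75, 28 and 6 members were tested. With the arrays aligned by cyclic loess, 2 members passed, against 12.1% of all.

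Vom1r70 had the smallest p of the members. Its values ran from 1.43 to 1.71 on day 1 (median 1.60, n = 10), from 1.06 to 2.01 on day 5 (median 1.48, n = 10) and from 0.94 to 1.81 on day 9 (median 1.33, n = 10). They ran from 0.98 to 1.77 on day 13 (median 1.12, n = 10), from 1.17 to 1.44 on day 17 (median 1.25, n = 9) and from 0.92 to 1.5 on day 21 (median 1.19, n = 12). Days 1 and 21 overlapped only between 1.43 and 1.5. The slope was -0.0187 log2 units per day (SE 0.0037, limma adjusted p = 0.000158). Vom2r43 fell from a median of 1.51 on day 1 (1.06 to 1.87) to 1.06 on day 21 (0.78 to 1.44), with a slope of -0.0198 (SE 0.0047, limma adjusted p = 0.0015). Vom2r51 fell from a median of 1.64 (0.82 to 2.91) to 1.04 (0.40 to 1.19), with a slope of -0.026 (SE 0.0065, limma adjusted p = 0.00245). Both genes overlapped between the first and last day. Vom1r45 (slope -0.0243, SE 0.0062) and Vom1r97 (slope -0.0162, SE 0.0045) followed.

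**Figure D4:**
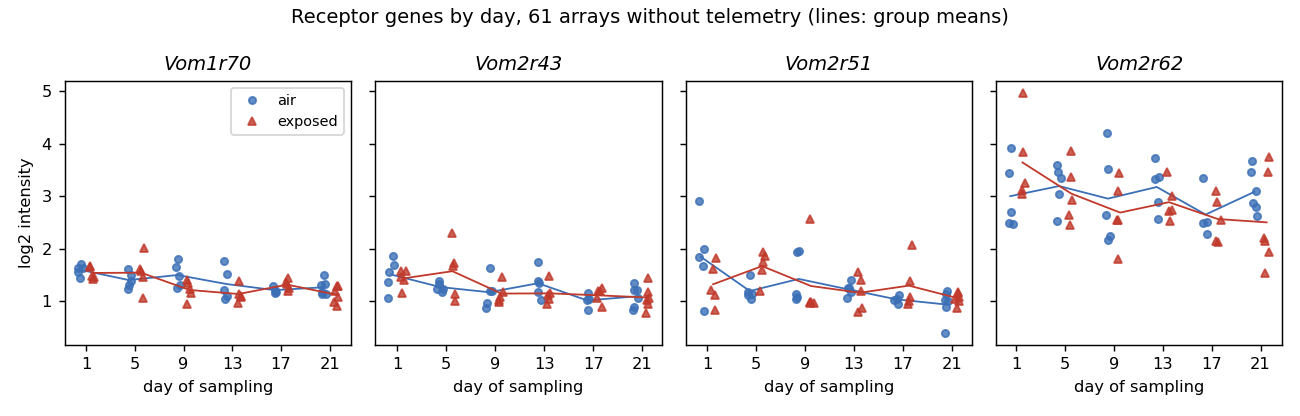
Log2 intensity of Vom1r70, Vom2r43, Vom2r51 and Vom2r62 by day of sampling on 61 arrays without telemetry, with circles for filtered air, triangles for exposed arrays and lines through the group means. The first 3 genes passed for a fall over days, and Vom2r62 (slope -0.0235, SE 0.0109) did not.

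In the arms taken alone, the slope passed for 3 members in air (2.33%, the same share as the 2.33% of all probe sets that fell) and for 17 in exposed rats (13.2%, against 6.41%), all falling. After cyclic loess 0 passed in either arm (against 3.5% of all in air and 6.05% in exposed rats), and with the quartile in the fit 0 passed in either (against 0.626% and 0.196%). Vom1r70, Vom2r51 and Vom1r30 passed in air. In exposed rats the smallest p values were those of Vom1r41 (slope -0.0263, SE 0.007), Vom1r3 (-0.0207, SE 0.0056), Vom1r70 (-0.0193, SE 0.0053), Vom1r66 (-0.0197, SE 0.0059) and Vom2r69 (-0.0266, SE 0.0081). The test of the difference between the arms' slopes passed for 0 of 129 members (background 0%). At an unadjusted p under 0.05 it was reached by 11 members (8.53%, against 5.71% of all), led by Vom2r69 (difference -0.0388 per day, SE 0.0114, adjusted p = 0.684) and Vom1r93 (-0.0284, SE 0.0087, adjusted p = 0.759). A difference between the arms was therefore not shown. Without the 4 arrays above 1.7, 1 member passed in air and 9 in exposed rats. The air count was 0 without air day 1 replicate 3 and 1 without air day 1 replicate 2 or air day 17 replicate 4. The exposed count was 11 without exposed day 5 replicate 5. These counts are given without the share of all probe sets in the same settings, so they show only how far the calls move.

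With the lower quartile as part of the fit, the slope was nearer to 0 for 95 of 129 members and farther from 0 for 34. In that fit 0 of 129 members passed for the slope of both arms (background 1.66%), and 7 (5.43%, against 12.3% of all) were under an unadjusted p of 0.05. The median slope became -0.0022, against 0.0009 over all probe sets, and 50 of 129 members had a positive one. For Vom1r70 the slope became -0.0097 (SE 0.0043, adjusted p = 0.314), for Vom2r43 -0.0094 (SE 0.0054, adjusted p = 0.504) and for Vom2r51 -0.0126 (SE 0.0075, adjusted p = 0.527). The receptors themselves enter the quartile, and with a quartile made without the vomeronasal and olfactory probe sets the count was again 0, against 1.67% of all.

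**Figure D5:**
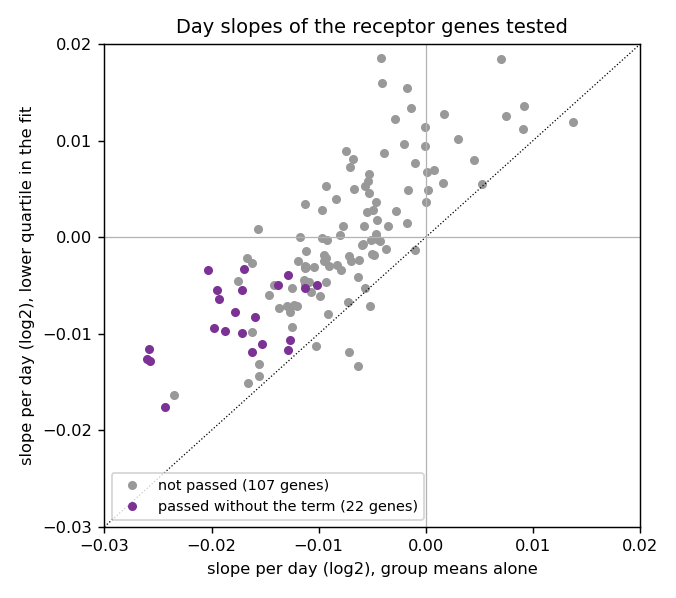
Slope over days, in log2 units per day averaged over both arms, of the 129 receptor genes tested, from the group means alone (horizontal) and with the lower quartile of the array in the fit (vertical), with equality as a dotted line. The 22 genes that passed without the term all keep a negative slope nearer to 0, and the median moves from -0.0084 to -0.0022.

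Other families and cell markers moved over the same days. The slope passed as a fall for 148 of 1056 olfactory receptor genes (14%) and as a rise for 7, where 11.3% of all probe sets fell and 14.7% rose. It passed for 4 of 25 Tas2r genes as a fall, for 1 of 12 Mas-related receptors as a fall and for 0 of 15 trace amine-associated receptors. Against the same 14.7%, it passed as a rise for 3 of 5 T cell markers, 3 of 4 monocyte markers and 3 of 5 NK cell markers, for 0 of 5 neutrophil and 0 of 3 platelet markers, and as a fall for Epb42. The mean of the 5 NK cell markers ran from 4.82 to 6.002 on day 1 and from 5.30 to 6.18 on day 21, that of the 4 monocyte markers from 5.93 to 8.48 and from 7.75 to 8.70, and that of the 5 T cell markers from 6.68 to 7.61 and from 7.20 to 7.77. The 5 neutrophil markers ran from 4.99 to 8.36 and from 7.27 to 8.54. The mean of the 3 erythroid genes ran from 11.8 to 12.0 on day 1 and from 11.1 to 11.7 on day 21, with no overlap. The part of these shifts in the receptor slopes was not tested.

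Whether the receptors differed between exposed and air rats was asked on each day. Limma passed 0 of 129 members on days 1, 5, 17 and 21, where the background was 0%, and 0 on days 9 and 13 and among the telemetry rats, where it was 0.00585% (among telemetry rats 0.00293% in each direction). At an unadjusted p under 0.05 the counts were 8 on day 1 (6.2%, against 6.59% of all), 10 for day 5 (7.75%, against 5.61%), 11 on day 9 (8.53%, against 7.12%) and 6 on day 13 (4.65%, against 7.7%). They were 8 on day 17 (6.2%, against 4.88%), 7 on day 21 (5.43%, against 4.96%) and 5 among telemetry rats (3.88%, against 5.33%). The SE of a difference had a median between 0.16 log2 units on day 21 and 0.22 on day 1, so that small shifts were not detectable with this number of arrays. For the mean difference over the 6 days, with a median SE of 0.083, 0 members passed (background 0%) and 3 were under an unadjusted p of 0.05 (2.33%, against 6.17%). The median of that difference was -0.0011, with 64 members higher and 65 lower in exposed rats. It ran from -0.27 for Vom1r92 (SE 0.15) to 0.21 for Vom2r31 (SE 0.09), and Vom2r58 had -0.25 (SE 0.12).

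On single days the medians lay on either side of 0. The median difference, exposed minus air, was 0.08 on day 1 and 0.09 on day 5, with 80 and 86 of 129 members higher in exposed rats (52.1% and 51.5% of all probe sets were higher). It was -0.08 on day 9 and -0.06 on day 13, with 43 and 44 members higher (48.9% and 48.5% of all). On days 17 and 21 it was 0.02 and -0.02, with 67 and 60 members higher (49.7% and 49.5% of all). With the quartile in the fit the medians of days 1, 5, 9 and 13 were 0.01, 0.03, -0.03 and -0.01. The 6 days share no arrays, and the telemetry rats are separate animals.

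The study's own selection rule was a fold of 1.5 or more with no regard to p. Of 129 members, 1, 5, 4, 3, 2 and 1 met it on the 6 days in order, and 0 among telemetry rats. The background on these days was 7.41%, 6.92%, 6.7%, 5.92%, 6.17%, 3.34% and 5.86% of all probe sets, above the members' 0.775%, 3.88%, 3.1%, 2.33%, 1.55%, 0.775% and 0%. That background is taken over all 34176 probe sets tested. The study carried only annotated main probe sets into its pathway step, so its own share of genes meeting the rule is another one. The order of members and background holds only for the set used here. On day 5, Vom1r40, Vom1r4 and Vom2r40 were higher in exposed rats (3.32% of all probe sets) and Vom1r89 and Vom1r92 lower (3.6%). On day 9 the 4 were Vom1r44, Vom2r26, Vom1r42 and Vom1r32, all lower in exposed rats (3.22% of all probe sets were lower and 3.48% higher). On day 13 the 3 were Vom2r23, Vom1r54 and Vom1r58, all lower (2.59% of all, and 3.34% higher). Vom2r58 was lower on day 1 (3.73% of all, and 3.68% higher), Vom1r35 and Vom1r20 were higher on day 17 (2.8% of all, and 3.37% lower), and Vom2r62 was lower on day 21 (1.61% of all, and 1.74% higher). The largest was Vom1r32 on day 9, a difference of -0.78 (SE 0.36, limma adjusted p = 0.66). Of the 9 vomeronasal symbols that occur in the study's supplementary gene lists 7 were members, and the means of 2 of them (Vom1r92 and Vom1r32) were above the mean lower quartile. Each of these 7 genes met the fold rule on the day for which the study lists it, day 5 or day 9, as named above. All but Vom1r92 also had an unadjusted limma p under 0.05 on that day. The rule and the data are the study's own, so this is no separate support. At an adjusted p under 0.05, none of the 7 passed an exposure comparison, and Vom1r4 and Vom1r89 passed for the slope of both arms.

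For the differences with the smallest p, the values of all arrays are given. Vom2r23 on day 13 read 1.08, 1.19, 1.87, 1.94 and 2.12 in air and 0.88, 0.91, 0.96, 0.98 and 1.01 in exposed rats. The groups did not overlap, and the difference was -0.67 (SE 0.21, limma adjusted p = 0.355). Vom1r44 on day 9 read 1.02, 1.07, 1.11, 2.48 and 2.51 in air and 0.85, 0.88, 1.06, 1.23 and 1.24 in exposed rats. Here 2 air arrays stood above an otherwise overlapping range (difference -0.65, SE 0.21, limma adjusted p = 0.448). Vom2r11 on day 9 read 0.85, 0.88, 1.27, 1.90 and 2.15 in air and 0.73, 0.75, 0.92, 0.95 and 1.33 in exposed rats, which overlapped (difference -0.53, SE 0.16, limma adjusted p = 0.403).

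Vom1r93 on day 5 read 1.19, 1.30, 1.42, 1.46 and 1.49 in air and 1.29, 1.92, 1.99, 2.08 and 2.32 in exposed rats, with 1 exposed array inside the air range (difference 0.51, SE 0.16, limma adjusted p = 0.653). Vom1r3 on day 5 read 0.63, 0.82, 0.82, 0.83 and 0.99 in air and 1.00, 1.05, 1.19, 1.42 and 1.60 in exposed rats, with no overlap (difference 0.44, SE 0.14, limma adjusted p = 0.697). On day 1 the smallest p values belonged to Vom1r30 (-0.45, SE 0.18) and Vom1r82 (0.42, SE 0.17), on day 17 to Vom1r35 (0.78, SE 0.28) and Vom1r108 (0.44, SE 0.18), and on day 21 to Vom2r15 (-0.47, SE 0.17) and Vom2r-ps45 (-0.58, SE 0.21). Vom1r54 had the next on day 13 (-0.60, SE 0.22).

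Telemetry rats were also compared with the other rats of day 21, averaged over both arms. Of 129 members 0 passed in limma where 3.32% of all probe sets did (2 passed without air telemetry replicate 3 and 1 without replicate 2), and 6 (4.65%, against 14.5%) were under an unadjusted p of 0.05. The counts without single arrays are given without the share of all probe sets in those fits. They show only how far the calls move. The smallest p values were those of Vom2r49 (0.36, SE 0.13, adjusted p = 0.143) and Vom1r101 (0.38, SE 0.14, adjusted p = 0.159). Vom1r43 had the smallest p for exposure in telemetry rats. It read 0.85, 1.00, 1.00 and 1.16 in air and 1.13, 1.38, 1.63 and 1.98 in exposed rats, overlapping by 1 array on each side (difference 0.48, SE 0.14, limma adjusted p = 0.576). Without telemetry its 6 air arrays ran from 1.14 to 1.59 and its 6 exposed arrays from 1.02 to 1.34, and the difference between these exposure effects was 0.75 (SE 0.18, limma adjusted p = 0.421). That difference passed for 0 of 129 members (background 0%), with 3 under an unadjusted p of 0.05 (2.33%, against 5.26%).

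The 17 probe sets left out for carrying several symbols were low as well. Their means ran from 0.89 to 2.70 with a median of 1.26, 13 of the 17 were under the mean lower quartile, and their mean had r of 0.81 to it over 69 arrays.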

How the data were processed

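Log2 expression values of 36685 probe sets on 69 Affymetrix Rat Gene ST 2.1 arrays were taken as deposited: the authors processed the arrays with the oligo package in R (3.4, per the submitters' processing notes) by robust multi-array average (RMA), which corrects background, aligns the distribution of single probes between arrays and summarises each probe set on the log2 scale. Because RMA aligns probes and not probe sets, lower quartiles of the summarised values can still differ between arrays. The labels and the study's methods differ on the RNA amount and the blood RNA kit. Gene names came from the platform annotation, gene positions and upstream windows from RefSeq (GRCr8).

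Probe sets with a variance under 0.05 over arrays were left out (2509 sets, 12 of them members), leaving 34176. Fits used limma 3.58.1 in R 4.3.3 with 14 group means, array weights by the gene-by-gene update and empirical Bayes, with p-values adjusted by Benjamini and Hochberg over all 34176, and with every array sharing 1 estimate of the spread. The scripts were tested on simulated data. P-values measure the spread between these arrays, and the number of arrays limits the precision. Named members were those highest and lowest in level, widest in range, most and least correlated with the quartile, smallest in p in each comparison, or listed by the study. The members, lists and named-gene rules were chosen with earlier results of these data known. Alternatives were equal weights, no variance filter, every probe set of a member, a variance trend, cyclic loess, the quartile as a covariate, replicate number as a block, only the arrays compared, the 1.5-fold rule, other percentiles or the olfactory median as the reference level, and leaving out each array. A further 2 were added after the data were seen: leaving out 4 arrays with a lower quartile above 1.7, and a quartile without receptor probe sets. Protein sequences were not used here.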

Additional observations from a re-analysis of the deposited data

Results flagged for a closer look

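Within groups of 4 to 6 arrays, the member mean, the lower quartile and 9 named genes were searched for an array far from the rest (154 tests over 14 groups). The search found 6. The member mean and the lower quartile follow each other, and the genes were taken from the named members. The tests are therefore not independent, and the count is not set against a share expected by chance. Exposed day 9 replicate 5 had a member mean of 1.21 against 1.32 to 1.36 in the other 4. Air day 1 replicate 2 had a lower quartile of 1.80 against 1.48 to 1.53. Vom1r70 read 1.57 in exposed telemetry replicate 2 against 1.15 to 1.21, and Vom2r51 read 2.57 in exposed day 9 replicate 3 against 0.96 to 0.99. Vom2r58 read 2.41 in air day 9 replicate 3 against 2.01 to 2.04, and 3.92 in exposed day 5 replicate 1 against 1.02 to 1.79, the latter being 1 of the 4 arrays with a lower quartile above 1.7.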

How the results depend on the processing

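Cyclic loess removes differences between each array and the average array that depend on intensity. It left 2 members passing for the slope of both arms (22 in the report), 0 in air, 0 in exposed rats and 0 for the quartile coefficient, where 12.1%, 3.5%, 6.05% and 0.0093% of all probe sets passed. The quartile as a covariate left 0, 0 and 0 for the slopes, and so did the quartile without receptor probe sets. Equal array weights gave 5 in air and 59 for the quartile. For this setting and those that follow, the share of all probe sets is not given beside the counts. These counts show only how far the calls move and are not read as a result about the members. Without the 4 arrays above 1.7, 1 passed in air, 9 in exposed rats, 15 for the quartile and 15 for both arms. With the replicate block the counts were 19 for both arms, 3 in air, 16 in exposed rats and 33 for the quartile, but the samples share only a number (34 same-numbered pairs had correlations of deviations from -0.08 to 0.25, 1 of them over 0.1, and 10 air arrays correlated best with their own number). The 1.5-fold rule gave 1, 5, 4, 3, 2 and 1 members on days 1 to 21. Leaving out single arrays gave 16 to 25 for both arms, 0 to 4 in air (0 without air day 1 replicate 3, 1 without air day 1 replicate 2 or air day 17 replicate 4), 11 to 18 in exposed rats (11 without exposed day 5 replicate 5), 31 to 41 for the quartile, 0 to 2 for telemetry (2 without air telemetry replicate 3, 1 without replicate 2) and 0 for exposure. Against the median of the olfactory receptors the median distance was -0.11 and 91 members lay under that reference, instead of -0.29 and 138 under the array median. Without the 4 arrays the correlation was 0.90. Within days 1, 9, 17, 21 and 21 with telemetry the correlation was 0.98, 0.88, 0.82, 0.62 and 0.69. All other settings kept counts within 1.5 times and the exposure counts at 0. The causes were not tested.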
